A study of Mus musculus with 16 samples.

Results

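The 43 genes described here encode the Wnt and beta-catenin pathway, from secreted ligands to the transcription factors at its end. They were chosen by name, as a list of ligands, receptors, relay proteins and nuclear partners, and each symbol was matched to an Ensembl identifier in the deposited table. All 43 were found among the 18424 genes of that table. Expression was measured by RNA sequencing of the medial prefrontal cortex (mPFC) of 16 male C57BL/6N mice at postnatal day 120. WT-Veh mice (n = 4) were wild type and WT-Flx mice (n = 4) were wild type with early fluoxetine, a selective serotonin reuptake inhibitor. HT-Veh mice (n = 4) and HT-Flx mice (n = 4) were heterozygous for a germline protein-truncating mutation in exon 5 of Arid1b, with vehicle and fluoxetine respectively. Dams drank water with 0.2% saccharin, and in the Flx groups fluoxetine hydrochloride at 0.1 mg/ml, so that pups of both genotypes took the drug or the vehicle in milk from day 3 to day 21. All mice drank plain water after weaning, so the tissue was taken long after the drug was withdrawn. The dose that reached each pup is not given in the sources used here, and the labels do not say which mice were littermates. The groups were compared to ask whether loss of 1 copy of Arid1b, early fluoxetine, or both left the transcripts of this pathway at a different level in the adult cortex.

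In the canonical pathway, a Wnt ligand that Porcn has lipid-modified and Wls has carried to the cell surface binds a Frizzled receptor together with Lrp5 or Lrp6. Without a ligand, a destruction complex built on Apc and Axin holds beta-catenin (Ctnnb1) while casein kinase 1 and Gsk3b phosphorylate it, and Btrc, part of a ubiquitin ligase, marks it for degradation. With a ligand, Dishevelled proteins (Dvl1, Dvl2 and Dvl3) relay the signal, the complex is inhibited, and beta-catenin enters the nucleus, where it binds TCF/LEF factors with Bcl9 and Pygo proteins as coactivators. Much of this control acts on protein stability and phosphorylation, which transcript levels do not measure. ARID1B belongs to SWI/SNF, a complex that repositions nucleosomes, and has been described as a restraint on beta-catenin signalling. Axin2 and Lef1 are commonly read as transcriptional targets of the pathway, so their transcripts come closest here to an output.

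Upstream sequences were examined because Axin2 and Lef1 are pathway targets that TCF/LEF proteins can bind directly. The 250 bases before the annotated start were taken from RefSeq promoter windows on GRCm38.p6 and searched on both strands for CTTTGA, a short core of the TCF/LEF binding motif. Of the 43 genes, 25 had a window, and 3 of these genes (12.0%) held the letters in at least 1 window. Among all genes with a window, 15.8% did so, and 13.8% of all 32851 windows held a match. The 3 genes were Lef1, Gsk3b and Fzd1. The windows of Axin2 (chr11:108920099-108920348, + strand), of Gsk3b (chr16:38088751-38089000, + strand) and of a downstream start inside Lef1 (chr3:131156044-131156293, + strand) are shown, to set the best-known target beside 2 genes with a match. Capitals mark the motif, which here lies on the opposite strand and so reads as its reverse complement.
Axin2: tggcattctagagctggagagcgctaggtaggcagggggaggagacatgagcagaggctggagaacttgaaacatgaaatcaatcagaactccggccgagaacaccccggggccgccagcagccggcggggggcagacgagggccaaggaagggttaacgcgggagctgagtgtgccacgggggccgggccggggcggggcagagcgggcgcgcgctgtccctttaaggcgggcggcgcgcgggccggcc
Gsk3b: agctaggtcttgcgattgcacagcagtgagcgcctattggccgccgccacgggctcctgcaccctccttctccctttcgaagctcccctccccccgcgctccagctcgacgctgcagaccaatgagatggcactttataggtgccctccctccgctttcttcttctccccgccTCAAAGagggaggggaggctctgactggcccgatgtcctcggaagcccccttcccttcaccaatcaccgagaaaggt
Lef1: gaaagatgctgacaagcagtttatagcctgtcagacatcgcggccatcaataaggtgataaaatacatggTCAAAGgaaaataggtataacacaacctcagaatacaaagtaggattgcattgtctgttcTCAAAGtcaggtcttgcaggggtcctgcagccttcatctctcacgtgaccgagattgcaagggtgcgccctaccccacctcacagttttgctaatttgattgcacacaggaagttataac
The Lef1 window overlapped no annotated exon and held 2 matches, at 180 and 120 bases before that start. The bases just past that start were not found in an annotated transcript of Lef1. Such bases were found for 25 of the 33 windows of the listed genes. The Gsk3b window held 1 match, at 77 bases before the start. The Axin2 window held none, which says only that these letters are absent from these bases. None of the other 3 Lef1 windows held the motif.

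The deposited values are normalized read counts, and their totals ranged from 26718751 to 29902419 per mouse. The sequencing depth behind them is unknown. Arid1b itself was at 1787 to 2831 in the WT-Veh mice, 1902 to 2433 in the WT-Flx mice, 1619 to 2005 in the HT-Veh mice and 1545 to 1671 in the HT-Flx mice. Over both treatments it was lower in HT mice by a log2 difference of -0.39 (SE 0.0796), which did not pass adjustment (limma, adjusted p = 0.0969). The counts cover the whole gene and do not read the mutation. The 7 markers of glutamatergic cortical neurons were present in every mouse, with a summed level of 115925 to 209913. The 10 markers of the olfactory bulb, a neighbouring structure, had a summed level of 1159 to 14011 in the WT-Veh mice, 1397 to 11982 in the WT-Flx mice, 1056 to 4691 in the HT-Veh mice and 974 to 1295 in the HT-Flx mice. By the mean of these markers 5 libraries stood apart: the WT-Veh mouse numbered 1, the WT-Flx mice numbered 1, 2 and 4, and the HT-Veh mouse numbered 4. The summed levels of GABAergic neurons, astrocytes, oligodendrocytes and their precursors, microglia, endothelial and mural cells, fibroblasts, striatal and thalamic neurons and choroid plexus overlapped in every pair of groups.

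All 43 genes were detected in adult mPFC, but the list was drawn up with earlier results of these data known. Of a further list of 80 pathway genes, 71 were in the deposited values. Wnt1, Wnt3a, Wnt8a, Wnt8b, Wnt11, Rspo4, Dkk1, Dkk4 and Sost were not. The lowest value of any of the 43 genes in any mouse was 19.25, so all 43 entered each of the 7 comparisons. Levels between genes are compared as normalized read counts per kb of exon, averaged over the 16 mice. The highest was Dkk3, a secreted protein of the Dickkopf family, at 2950 per kb, and Ctnnb1 came next at 1910 per kb. Their ranges over mice overlapped. Ctnnb1 did not overlap the next gene, Apc, whose level was 882 per kb.

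**Figure D1:**
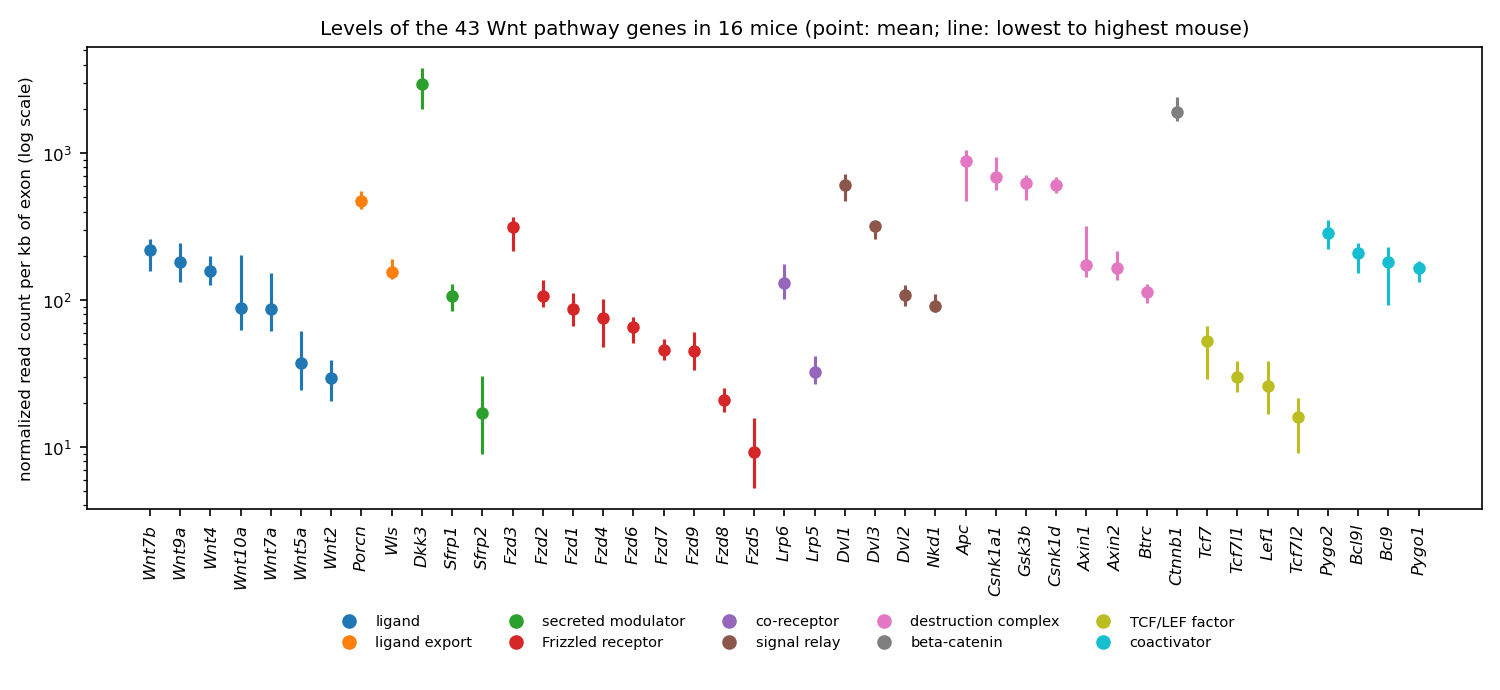
Normalized read count per kb of exon (log scale) for the 43 Wnt pathway genes, ordered by role and then by level, with a point for the mean of 16 mice and a line from the lowest to the highest mouse. Dkk3 and Ctnnb1 stand highest, at 2950 and 1910, and Fzd5 lowest, at 9.18.

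The genes grouped here with the destruction complex held many of the higher levels. Csnk1a1 stood at 683, Gsk3b at 625 and Csnk1d at 605 per kb, while the scaffolds Axin1 and Axin2 stood at 172 and 165 and Btrc at 113 per kb. Among the relay proteins Dvl1 was at 610, Dvl3 at 317 and Dvl2 at 108 per kb, and Nkd1, which binds Dishevelled and dampens the signal, was at 90.9 per kb. Of the ligands, Wnt7b was highest at 218, followed by Wnt9a at 181 and Wnt4 at 157, and Wnt2 was lowest at 29.5 per kb. Porcn, the acyltransferase that lipid-modifies Wnt proteins, was at 469 and Wls, the ligand carrier, at 154 per kb. Of the Frizzled receptors Fzd3 was highest at 316 per kb, Fzd2 was at 106, and Fzd5 was the lowest of all 43 genes at 9.18 per kb. The co-receptor Lrp6 was at 131 and Lrp5 at 32.5 per kb.

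The TCF/LEF factors were low, with Tcf7 at 52.7, Tcf7l1 at 30.0, Lef1 at 25.8 and Tcf7l2 at 16.1 per kb. The coactivators that work with them were higher, from 165 for Pygo1 to 285 for Pygo2. The secreted modulators were spread widely, from Dkk3 at the top to Sfrp1 at 106 and Sfrp2 at 17.1 per kb. In the order of the 43 levels, 40 of the 42 neighbouring pairs had overlapping ranges over mice. The breaks were Ctnnb1 above Apc and Porcn above Dvl3. The median over the 43 genes was 113 per kb, beside 101 for all genes that reached 10 in 4 or more mice.

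Variation within groups was modest. The SD of log2 values within groups had a median of 0.186 over the 43 genes, beside 0.219 over all genes that passed the same minimum. Csnk1d, the delta form of casein kinase 1, varied least (SD 0.062), followed by Dvl1 (0.102) and Btrc (0.118). Sfrp2 varied most (0.549), followed by Fzd5 (0.49), both of them at the low end of the levels.

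A pair of libraries departed from the rest in a way that followed gene length. Among genes with a mean of at least 100, the longest 10% lay below the shortest 10% in WT-Veh replicate 1 and WT-Flx replicate 1. The medians of the 2 sets differed by -0.689 and -0.645 on the log2 scale, each gene being taken relative to its 16-mouse median. In the other 14 mice this difference lay between -0.132 and 0.142. Of the 43 genes, 15 lay over 1.25-fold from their 16-mouse median in WT-Veh replicate 1 and 12 in WT-Flx replicate 1. The shares were 35.3% and 30.0% of all genes with a mean of at least 100, a minimum that some of the 43 did not reach. Of the mice without such a trend, HT-Flx replicate 2 had 13 of the 43 genes that far off, beside 17.2% of the same set. HT-Flx replicate 4 had 11, beside 10%.

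**Figure D2:**
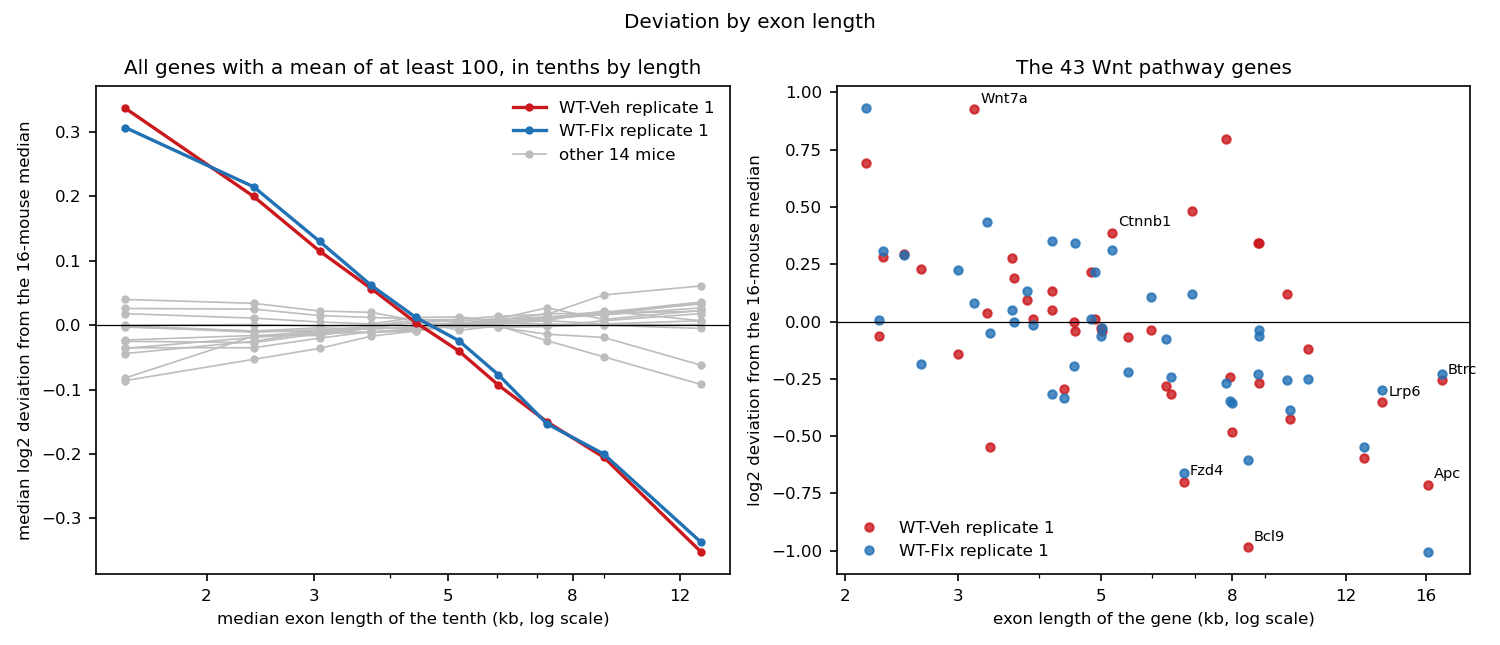
Left, median log2 deviation from the 16-mouse median by exon length (kb, log scale) in 10 equal sets of all genes with a mean of at least 100, with a line per mouse. Right, log2 deviation of each of the 43 Wnt pathway genes against its exon length in the 2 libraries with the trend, where Apc, the second longest, lies at -0.711 and -1.005.

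Most of the longer transcripts of the pathway were low in both libraries. Of the 22 genes at or above the median exon length of the 43, 16 lay below their 16-mouse median in WT-Veh replicate 1 and 19 in WT-Flx replicate 1. Of the 21 shorter genes 7 and 8 did so. The exceptions in WT-Veh replicate 1 included Wnt5a at 0.798, Fzd5 at 0.482, and Wls and Tcf7l2 at 0.342 on the log2 scale above the median. Apc, the scaffold of the destruction complex, was at 9303 and 7587 in these mice and at 12073 to 16869 in the other 14. Fzd3 was at 2777 and 2871 there, and Gsk3b at 4714 and 4840. Bcl9, which tethers Pygo proteins to beta-catenin, was at 784 and 1019 there. Each of these was the lowest pair of the 16 values for its gene. Ctnnb1 was high instead, at 12435 and 11794 in these mice and at 8515 to 11682 in the others. Comparisons that involve the WT groups are therefore also given without these 2 libraries, an alternative chosen after the data were seen.

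Ctnnb1 (chr9:120929216-120960507, + strand) encodes beta-catenin, which signals in the nucleus and also links cadherins at cell junctions. It was at 12435, 8785, 8515 and 8684 in the WT-Veh mice, 11794, 10349, 9320 and 11682 in the WT-Flx mice, 9400, 9220, 9555 and 10607 in the HT-Veh mice and 9458, 10537, 8797 and 9546 in the HT-Flx mice. The 4 groups overlapped, and the 4 highest values belonged to libraries rich in bulb markers, among them both libraries with the length trend. Axin2 (chr11:108920349-108950783, + strand), a scaffold that the pathway itself induces, was at 838, 940, 852 and 1001 in the WT-Veh mice, 752, 823, 887 and 804 in the WT-Flx mice, 786, 929, 868 and 987 in the HT-Veh mice and 940, 1194, 1032 and 863 in the HT-Flx mice. Its highest 2 values were both HT-Flx and its lowest was WT-Flx. Lef1 (chr3:131110471-131224356, + strand), the lymphoid enhancer-binding factor, was at 191, 209, 231 and 235 in the WT-Veh mice, 221, 235, 210 and 230 in the WT-Flx mice, 246, 208, 243 and 339 in the HT-Veh mice and 239, 147, 277 and 174 in the HT-Flx mice. Its spread was wider in the HT groups than in the WT groups, a difference that was not tested.

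**Figure D3:**
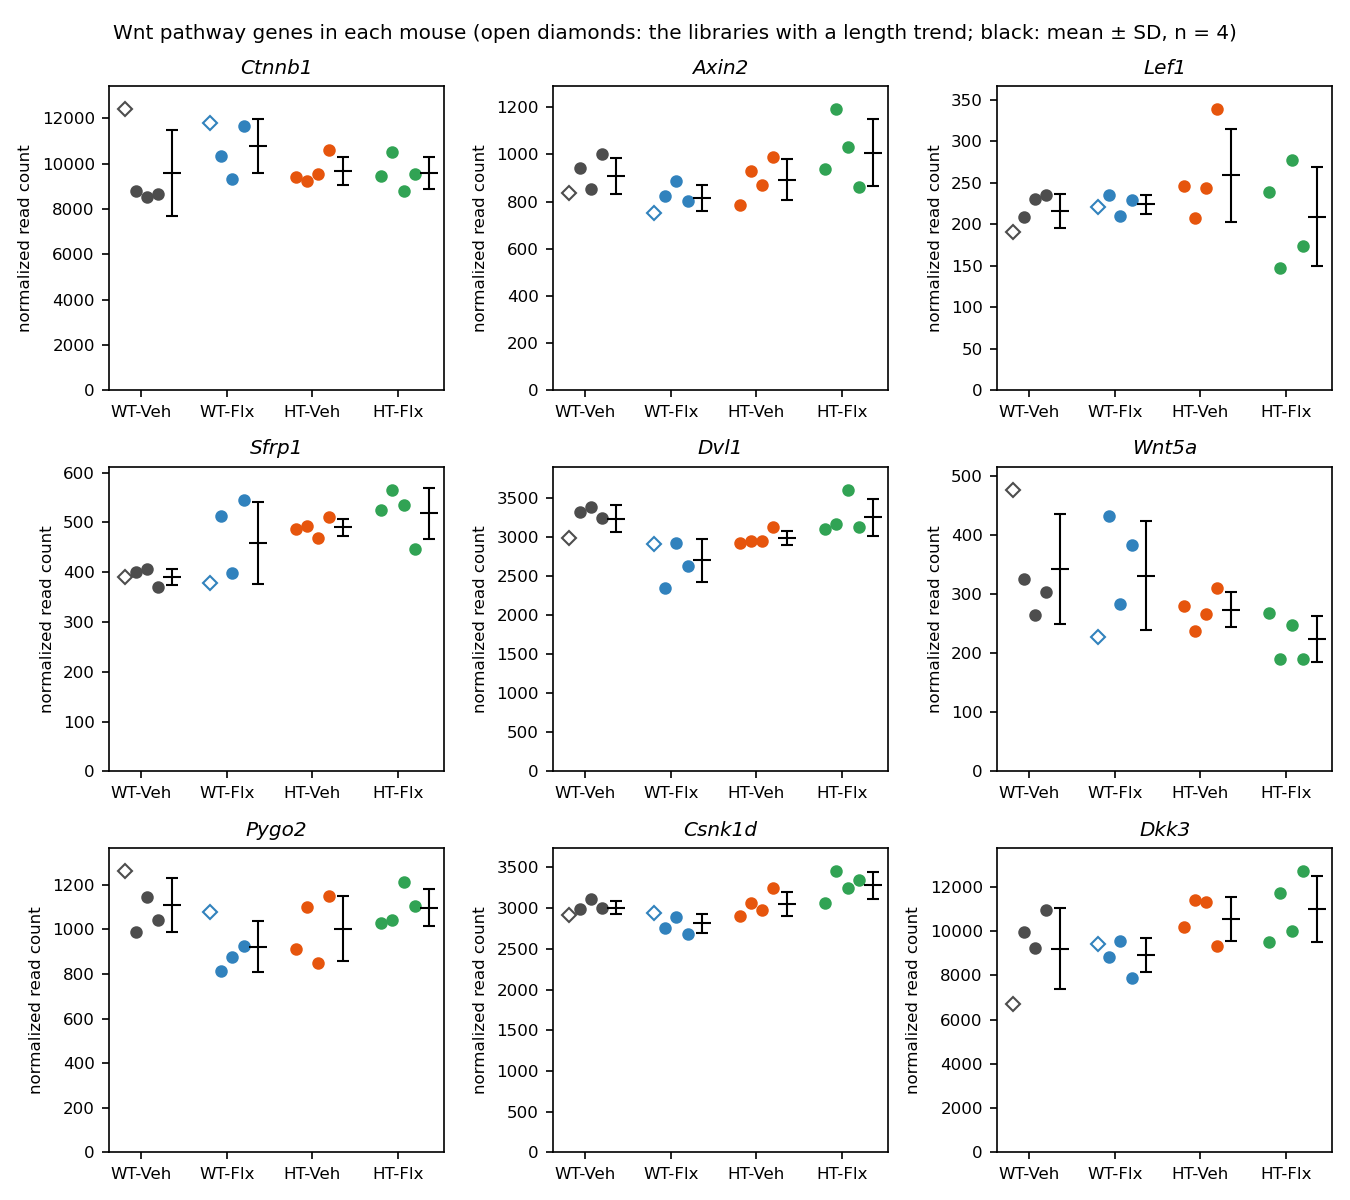
Normalized read count (y axis from 0) in each mouse of the 4 groups for 9 Wnt pathway genes, with open diamonds for the 2 libraries with the length trend and black bars for the mean ± SD of 4 mice. Sfrp1 in HT-Veh lies wholly above WT-Veh, Dvl1 in WT-Flx lies wholly below WT-Veh and HT-Flx, and the other panels overlap in most pairs of groups.

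Without drug, loss of 1 copy of Arid1b went with no called difference in the pathway. None of the 43 genes passed the adjusted threshold in HT-Veh versus WT-Veh (limma on log2(value + 1), smallest adjusted p = 0.811), where 0.0178% of 16832 genes did. At an unadjusted p under 0.05 there was 1 of the 43, beside 4.88% of all genes. Without WT-Veh replicate 1, the library with the length trend, there were 7 of the 43, beside 7.43% of all genes, and 0 passed the adjusted threshold (smallest adjusted p = 0.358). The 7 were Sfrp1, Dvl1, Tcf7l2, Ctnnb1, Wnt7b, Lrp5 and Fzd6. Without any other single mouse of this comparison there were 1 or 2, beside 3.32% to 6.09% of all genes. In a fit of all groups without the bulb-rich libraries, where WT-Flx kept 1 mouse, the median log2 difference was -0.023, beside 0.001. With all mice the log2 differences ran from -0.293 to 0.325 with a median of 0.038, beside 0.006 for all genes. Of the 43, 27 were positive. The 95% interval lay within 1 log2 unit of no difference for 42 of the 43 genes and within 0.5 for 29. Of the 43, 1 had no overlap between the groups, beside 3.84% of all genes.

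That gene was Sfrp1 (chr8:23411502-23449632, + strand), a secreted Frizzled-related protein that binds Wnt ligands. It was at 390, 400, 406 and 369 in the WT-Veh mice, 379, 513, 398 and 546 in the WT-Flx mice, 487, 494, 469 and 511 in the HT-Veh mice and 525, 566, 535 and 447 in the HT-Flx mice. All 4 HT-Veh mice lay above all 4 WT-Veh mice, while the WT-Flx mice fell into a low and a high pair. HT-Veh minus WT-Veh was 0.33 (SE 0.0791, 95% interval 0.149 to 0.501, unadjusted p = 0.00207, adjusted p = 0.811). Without WT-Veh replicate 1 it was 0.32 (adjusted p = 0.358), and with a bulb covariate, in a fit over all 16 mice, 0.34 (adjusted p = 0.861).

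Ctnnb1 differed by 0.03 (SE 0.119, 95% interval -0.234 to 0.294, adjusted p = 0.976). Its value rested on WT-Veh replicate 1, without which it was 0.16 (unadjusted p = 0.0168, adjusted p = 0.524). Axin2 differed by -0.03 (95% interval -0.235 to 0.183) and Lef1 by 0.24 (95% interval -0.105 to 0.583). The ligand Wnt7b was at 1097, 1055, 887 and 1035 in the WT-Veh mice, 1267, 954, 770 and 939 in the WT-Flx mice, 1235, 1117, 1084 and 1165 in the HT-Veh mice and 959, 1163, 1111 and 1255 in the HT-Flx mice. Its HT-Veh and WT-Veh ranges overlapped by 1 mouse on either side, and the difference was 0.18 (SE 0.0844, adjusted p = 0.922). The co-receptor Lrp6 was at 1393, 1832, 1639 and 1866 in the WT-Veh mice, 1444, 1701, 1959 and 1744 in the WT-Flx mice, 1903, 1709, 2390 and 2034 in the HT-Veh mice and 1807, 1745, 1771 and 1784 in the HT-Flx mice. Its difference of 0.26 (SE 0.121, adjusted p = 0.922) was 0.17 without WT-Veh replicate 1, the lowest of the 16 values.

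**Figure D4:**
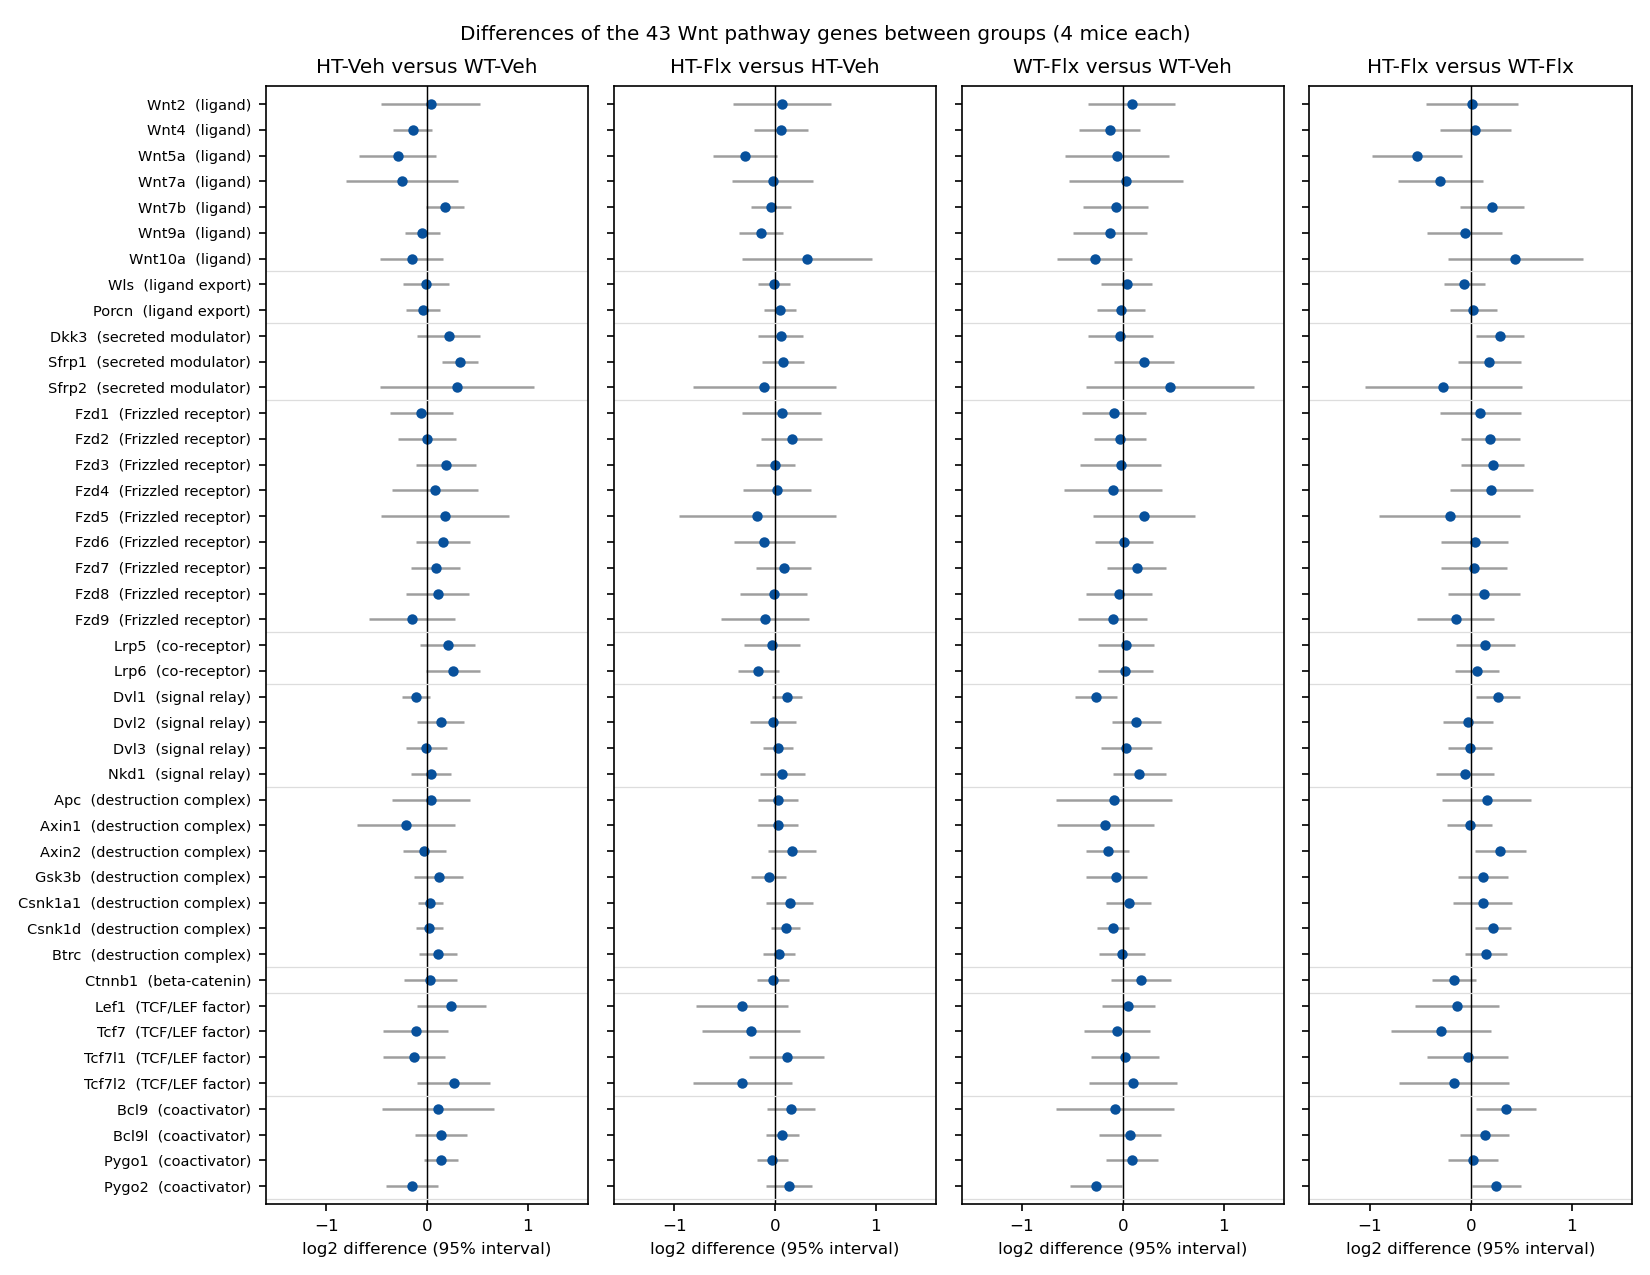
Log2 difference with its 95% interval (x axis) for the 43 Wnt pathway genes, ordered by role, in the 4 comparisons of 2 groups of 4 mice. Points lie between -0.535 and 0.466 and no gene passed the adjusted threshold; intervals that leave out 0 belong to 1, 0, 2 and 7 genes in the 4 panels from left to right.

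Fluoxetine in heterozygous mice went with no called difference in the pathway. In HT-Flx versus HT-Veh none of the 43 genes passed the adjusted threshold (limma, all adjusted p = 1), and 0% of 16814 genes did. At an unadjusted p under 0.05 there were 0 of the 43, beside 3.07% of all genes, and 0 lacked overlap, beside 1.99%. The median log2 difference was 0.025, beside 0.003 for all genes. The 95% interval lay within 1 log2 unit for all 43 genes and within 0.5 for 34. Neither group held a library with the length trend, and 1 HT-Veh library was rich in bulb markers. With single mice left out there were at most 2 of the 43 at an unadjusted p under 0.05. These counts of 2 were without HT-Veh replicate 2 or HT-Flx replicate 1, beside 2.67% and 5.63% of all genes. In a fit of all groups without the bulb-rich libraries, where WT-Flx kept 1 mouse, the median log2 difference was 0.016, beside 0.001.

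Ctnnb1 differed by -0.02 (SE 0.0726, 95% interval -0.176 to 0.141), Axin2 by 0.17 (SE 0.109, 95% interval -0.07 to 0.407) and Lef1 by -0.33 (SE 0.208, 95% interval -0.781 to 0.129). Wnt5a, a ligand best known for signalling that does not use beta-catenin, had the smallest unadjusted p of the 43. It was at 478, 326, 265 and 305 in the WT-Veh mice, 227, 433, 284 and 384 in the WT-Flx mice, 281, 239, 267 and 311 in the HT-Veh mice and 268, 191, 248 and 191 in the HT-Flx mice. The highest value was the bulb-rich WT-Veh replicate 1, and the HT groups overlapped. Its difference was -0.30 (SE 0.145, unadjusted p = 0.0632, adjusted p = 1). Lrp6 differed by -0.17 (SE 0.0926) and Dvl1 by 0.12 (SE 0.0672), each with adjusted p = 1.

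In wild-type mice, fluoxetine likewise gave no called difference. In WT-Flx versus WT-Veh none of the 43 genes passed the adjusted threshold, and 0% of 16833 genes did. At an unadjusted p under 0.05 there were 2 of the 43, both lower, beside 4.2% of all genes, and 1 lacked overlap, beside 2.89%. The median log2 difference was -0.014, beside -0.001 for all genes. Both libraries with the length trend were in this comparison. Without them there were 9 of the 43 at an unadjusted p under 0.05, beside 15.2% of all genes, and 0 passed the adjusted threshold (smallest adjusted p = 0.179). With single mice left out, the lowest count was 0, without WT-Veh replicate 3 (beside 2.86% of all genes) or WT-Flx replicate 2 (2.77%). The highest was 7, without WT-Flx replicate 1 (8.47%). There were 4 without WT-Veh replicate 1 (10.3%), and 1 without WT-Veh replicate 4 (2.76%) or WT-Flx replicate 3 (4.38%) or 4 (2.9%).

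Dvl1 (chr4:155847402-155859303, + strand), a Dishevelled relay protein, was the gene without overlap. It was at 2990, 3323, 3388 and 3248 in the WT-Veh mice, 2921, 2345, 2926 and 2631 in the WT-Flx mice, 2933, 2952, 2950 and 3131 in the HT-Veh mice and 3108, 3166, 3613 and 3139 in the HT-Flx mice. All WT-Flx mice lay below all WT-Veh mice and below all HT mice of both treatments. WT-Flx minus WT-Veh was -0.26 (SE 0.0933, 95% interval -0.47 to -0.056, unadjusted p = 0.0179, adjusted p = 1). It was -0.34 without the length-trend libraries (adjusted p = 0.179) and -0.22 with a bulb covariate (adjusted p = 0.653). The mean was 3237 ± 175 in the WT-Veh mice, 2705 ± 277 in the WT-Flx mice, 2991 ± 93.3 in the HT-Veh mice and 3257 ± 239 in the HT-Flx mice (SD, n = 4).

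Pygo2, a coactivator that reads histone H3 methylation, was at 1264, 986, 1145 and 1042 in the WT-Veh mice, 1078, 812, 876 and 925 in the WT-Flx mice, 914, 1101, 851 and 1150 in the HT-Veh mice and 1031, 1042, 1212 and 1103 in the HT-Flx mice. The lowest of the 16 values was WT-Flx, and the WT groups overlapped through WT-Flx replicate 1. WT-Flx minus WT-Veh was -0.27 (SE 0.116, unadjusted p = 0.0433, adjusted p = 1). The ligand Wnt10a was at 241, 182, 235 and 218 in the WT-Veh mice, 240, 155, 170 and 163 in the WT-Flx mice, 188, 164, 205 and 230 in the HT-Veh mice and 156, 504, 251 and 179 in the HT-Flx mice. A single HT-Flx mouse stood apart at 504 while no other value passed 251, and WT-Flx minus WT-Veh was -0.28 (SE 0.168, adjusted p = 1). Ctnnb1 differed by 0.18 (SE 0.135, adjusted p = 1) and, without the length-trend libraries, by 0.26 (unadjusted p = 0.0101, adjusted p = 0.219). With a bulb covariate the difference was 0.05 (adjusted p = 0.925). Axin2 differed by -0.15 (SE 0.096) and Lef1 by 0.05 (SE 0.119), both with adjusted p = 1.

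Among fluoxetine-treated mice, more genes differed by genotype before adjustment, in the pathway as among all genes. In HT-Flx versus WT-Flx none of the 43 genes passed the adjusted threshold (smallest adjusted p = 0.387), where 0.0417% of 16788 genes did. At an unadjusted p under 0.05 there were 7 of the 43, 6 higher and 1 lower, beside 10.4% of all genes, and 2 lacked overlap, beside 5.83%. The 7 were Dvl1, Dkk3, Csnk1d, Wnt5a, Bcl9, Axin2 and Pygo2. The count was 2 without WT-Flx replicate 4, beside 6.71% of all genes. It was 3 without HT-Flx replicate 2, 3 or 4, beside 8.6%, 7.55% and 7.93%. Without WT-Flx replicate 1, the library with the length trend, it was 6, beside 11.2% of all genes. The median log2 difference was 0.047, beside 0.008 for all genes. Without the bulb-rich libraries, where WT-Flx kept 1 mouse, it was 0.034, beside 0.003. The bulb markers did not overlap between these groups, being higher in every WT-Flx mouse, and in bulk tissue more cells of a type and more RNA per cell cannot be told apart.

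Dvl1 was higher in HT-Flx by 0.27 (SE 0.0984, unadjusted p = 0.0176, adjusted p = 0.387), with no overlap. Csnk1d was at 2914, 2984, 3111 and 3007 in the WT-Veh mice, 2935, 2756, 2886 and 2685 in the WT-Flx mice, 2905, 3060, 2975 and 3245 in the HT-Veh mice and 3061, 3461, 3252 and 3344 in the HT-Flx mice. All HT-Flx mice lay above all WT-Flx mice, with a difference of 0.22 (SE 0.0815, unadjusted p = 0.0193, adjusted p = 0.391). Dkk3 was at 6689, 9977, 9228 and 10953 in the WT-Veh mice, 9432, 8824, 9562 and 7896 in the WT-Flx mice, 10178, 11397, 11323 and 9313 in the HT-Veh mice and 9529, 11725, 10009 and 12735 in the HT-Flx mice. Only 1 HT-Flx mouse fell within the WT-Flx range, and the difference was 0.30 (SE 0.109, unadjusted p = 0.0192, adjusted p = 0.391). Axin2 was higher by 0.30 (SE 0.116, 95% interval 0.042 to 0.548, unadjusted p = 0.026, adjusted p = 0.424). Wnt5a was lower by a log2 difference of -0.54 (SE 0.206, unadjusted p = 0.0235, adjusted p = 0.414). Without WT-Flx replicate 1 Wnt5a differed by -0.70 (unadjusted p = 0.00308) and Wnt7b by 0.34 (unadjusted p = 0.0163, beside 0.18 with all mice), while Axin2 at 0.26 and Bcl9 at 0.22 had unadjusted p of 0.0523 and 0.0575. Ctnnb1 differed by -0.17 (SE 0.0994, adjusted p = 0.563) and Lef1 by -0.14 (SE 0.191, adjusted p = 0.824).

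The bulb markers moved with some of these values more than with others. With the bulb markers as a covariate, Dkk3 differed by 0.04, Bcl9 by -0.07 and Wnt5a by -0.21, all with unadjusted p of 0.303 or more. In the same fit 6 of the 43 genes had an unadjusted p under 0.05, beside 6.82% of all genes. Among them were Fzd2 and, with unadjusted p between 0.00932 and 0.0497, Pygo2 at 0.37, Axin2 at 0.26, Csnk1d at 0.21 and Dvl1 at 0.20. The smallest adjusted p of the 43 genes was 0.59. The bulb markers did not overlap between these groups, so the fit cannot fully separate genotype from bulb markers. In that fit Ctnnb1 differed by 0.07, the opposite sign to its value without the covariate.

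The interaction asks whether the fluoxetine difference itself was unlike in the 2 genotypes. None of the 43 genes passed the adjusted threshold (limma over all 16 mice, smallest adjusted p = 0.998), and 0% of 17567 genes did. At an unadjusted p under 0.05 there were 4 of the 43, beside 4.29% of all genes. They were Dvl1, Pygo2, Csnk1d and Axin2, and in all 4 the fluoxetine difference was negative in WT and positive in HT mice. These genes were picked by a small p for this interaction in the same mice, which favours opposite signs, so the shared signs are not a separate result. The count was 1 without WT-Flx replicate 2 or without HT-Veh replicate 3, beside 3.46% and 3.58% of all genes. It was 2 without WT-Veh replicate 2 or 4, WT-Flx replicate 4, HT-Veh replicate 1 or HT-Flx replicate 2, beside 3.43% to 4.3%. It was also 2 with the bulb covariate, beside 5.61%, and with upper-quartile scaling, beside 4.25%. It was 5 without HT-Flx replicate 1, beside 5.92%, and 6 without WT-Veh replicate 1, beside 9.62%. Without the length-trend libraries it was 6, beside 11%. For Dvl1 the fluoxetine difference was -0.26 in WT and 0.12 in HT, an interaction of 0.38 (SE 0.112, 95% interval 0.146 to 0.621, unadjusted p = 0.00331, adjusted p = 0.998). For Pygo2 the interaction was 0.40 (SE 0.161, unadjusted p = 0.0226), for Axin2 0.32 (SE 0.148, unadjusted p = 0.0444) and for Csnk1d 0.20 (SE 0.0898, unadjusted p = 0.0391).

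Across these 4 genes, picked by their interaction as above, WT-Flx had the lowest mean of the 4 groups. For Axin2 the means were 908 ± 76.8 in the WT-Veh mice, 816 ± 55.6 in the WT-Flx mice, 893 ± 86.2 in the HT-Veh mice and 1007 ± 142 in the HT-Flx mice (SD, n = 4). Without the length-trend libraries the Dvl1 interaction was 0.46 (unadjusted p = 0.000546, adjusted p = 0.262). Ctnnb1 had an interaction of -0.20 (SE 0.159, adjusted p = 0.998), and Lef1 one of -0.38 (SE 0.253, adjusted p = 0.998). The intervals were wide, lying within 1 log2 unit for 39 of the 43 genes and within 0.5 for 19.

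Over both treatments, most of the pathway had small positive differences between HT and WT mice, none of them called. None of the 43 genes passed the adjusted threshold in HT versus WT (smallest adjusted p = 0.297), where 0.0398% of 17567 genes did. Before adjustment 6 of the 43 had a p under 0.05, 5 higher and 1 lower, beside 11.9% of all genes. With single mice left out the count ran from 3, without HT-Flx replicate 4, to 8, without WT-Veh replicate 2. The shares of all genes in these 2 fits were 9.53% and 13.6%. The count was 3 with the bulb covariate, beside 5.46% of all genes. It was 5 without the length-trend libraries, beside 8.16%. Positive differences made up 67.4% of the 43 genes and 51.1% of all genes, and the median was 0.059 beside 0.004. Without the length-trend libraries the median was 0.023, beside 0.004 for all genes. Without the bulb-rich libraries it was 0.016, beside 0.002.

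Sfrp1 was higher in HT mice by 0.26 (SE 0.0806, unadjusted p = 0.00521, adjusted p = 0.297) and Dkk3 by 0.26 (SE 0.091, unadjusted p = 0.0117, adjusted p = 0.347). Wnt5a was lower by a log2 difference of -0.41 (SE 0.142, unadjusted p = 0.00902, adjusted p = 0.332). The other 3 were Csnk1d at 0.12, Wnt7b at 0.19 and Btrc at 0.13, with adjusted p between 0.391 and 0.42. Without the length-trend libraries Wnt7b had the smallest p of the 43, at a difference of 0.28 (unadjusted p = 0.00146, adjusted p = 0.289). With the bulb covariate Sfrp1 differed by 0.32 (unadjusted p = 0.00159), Dkk3 by 0.12 (unadjusted p = 0.118) and Wnt5a by -0.22 (unadjusted p = 0.0914). Ctnnb1 differed by -0.07 (95% interval -0.237 to 0.101), Axin2 by 0.13 (95% interval -0.036 to 0.305) and Lef1 by 0.05 (95% interval -0.225 to 0.324).

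Over both genotypes, the differences between Flx and Veh mice spanned the narrowest range of the 7 comparisons. None of the 43 genes passed the adjusted threshold in Flx versus Veh (all adjusted p = 1) and 0% of 17567 genes did, and 0 of the 43 had an unadjusted p under 0.05, beside 3.11% of all genes. Without the length-trend libraries Wnt9a and Sfrp1 did, beside 5.22% of all genes. There were 3 without WT-Flx replicate 1 alone, beside 5.08%, and 1 without HT-Flx replicate 4, beside 3.66%. The differences ran from -0.177 to 0.18, and the 95% interval lay within 0.5 log2 units for 42 of the 43 genes. Ctnnb1 differed by 0.08 (SE 0.0805), Axin2 by 0.01 (SE 0.0811), Lef1 by -0.14 (SE 0.131) and Sfrp1 by 0.14 (SE 0.0806). Nkd1 was at 376 to 415 in the WT-Veh mice, 381 to 501 in the WT-Flx mice, 382 to 447 in the HT-Veh mice and 388 to 473 in the HT-Flx mice, a difference of 0.12 (SE 0.0748). The ligand Wnt9a was at 598 to 670 in the WT-Veh mice, 443 to 818 in the WT-Flx mice, 583 to 669 in the HT-Veh mice and 483 to 614 in the HT-Flx mice, a difference of -0.13 (SE 0.096). For both genes all 4 groups overlapped.

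With all mice and no covariate, the receptors had no small p. None of the 9 Frizzled receptors had an unadjusted p under 0.05 in any of the 7 comparisons, and neither did Lrp5, Lrp6, Wls, Porcn or any of the 4 TCF/LEF factors. The genes that did were Sfrp1 and Dkk3 of the secreted modulators, Wnt5a and Wnt7b of the ligands and Dvl1 of the relay proteins. They also included Axin2, Csnk1d and Btrc, grouped here with the destruction complex, and Bcl9 and Pygo2 of the coactivators. Other fits did give receptors and factors an unadjusted p under 0.05, and those given here had adjusted p of 0.288 or more. Fits without single mice are not listed. With the replicate block the genes were Fzd3 (0.0284), Lrp6 (0.0456) and Lrp5 (0.0491) in HT versus WT. Without the length-trend libraries they included Tcf7l2 (0.0137), Lrp5 (0.0398) and Fzd6 (0.0454) in HT-Veh versus WT-Veh and Wls (0.0334) in WT-Flx versus WT-Veh. With the bulb covariate they were Lrp6 in HT-Veh versus WT-Veh (0.0386), Fzd2 in HT-Flx versus WT-Flx (0.01) and Lrp5 in HT versus WT (0.0407). Without the bulb-rich libraries they were Lrp5 in HT-Veh versus WT-Veh (0.0388) and Fzd2 in HT-Flx versus HT-Veh (0.0399). The widest intervals in HT-Veh versus WT-Veh were those of Sfrp2 (-0.468 to 1.065) and Fzd5 (-0.459 to 0.814).

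Other genes of the pathway and its targets came from 2 further lists, of which the table held 75 genes in all. Rspo1, an R-spondin that strengthens Wnt signalling through Lgr receptors, was the exception to the absence of calls, and fell in HT-Veh versus WT-Veh. It was at 248, 303, 306 and 279 in the WT-Veh mice, 223, 170, 271 and 85.3 in the WT-Flx mice, 106, 127, 107 and 130 in the HT-Veh mice and 141, 109, 159 and 85.6 in the HT-Flx mice. All HT-Veh mice lay below all WT-Veh mice, by a log2 difference of -1.27 (SE 0.126, limma adjusted p = 0.0229). The call was lost with all 4 groups in the fit, where the adjusted p was 0.548 without a covariate, 0.138 with the bulb covariate and 0.11 without the bulb-rich libraries. It was also lost without WT-Veh replicate 2, 3 or 4 or HT-Veh replicate 1, 2 or 3 (adjusted p from 0.0714 to 0.2). The difference lay between -1.381 and -1.223 in all of these fits. Of 71 other genes tested in this comparison, 1 passed and fell and 0 rose. Over both treatments Rspo1 differed by -0.89 (adjusted p = 0.163).

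In the other comparisons none of the 72 or 73 other genes tested passed. Frzb, a secreted antagonist, was at 723, 752, 669 and 920 in WT-Flx and 445, 388, 500 and 486 in HT-Flx mice, without overlap. It was at 1014, 546.1, 649.5 and 511.5 in the WT-Veh mice and 515.1, 406, 682.7 and 646.2 in the HT-Veh mice. Its highest values were in libraries rich in bulb markers, 1014 in WT-Veh replicate 1 and 920 in WT-Flx replicate 4. HT-Flx minus WT-Flx was -0.75 (SE 0.129, adjusted p = 0.103), and over both treatments the difference was -0.50 (adjusted p = 0.269). Lgr5, an R-spondin receptor, was at 179, 646, 111 and 1106 in WT-Flx and 54.1, 65.2, 67.6 and 73 in HT-Flx mice, a difference of -2.40 (SE 0.566, adjusted p = 0.289). Its high values were in the libraries rich in bulb markers, with 1155 in WT-Veh replicate 1 and 426 in HT-Veh replicate 4. Lgr6 differed by -0.97 and the receptor Ror2 by -0.59 in HT-Flx versus HT-Veh, Wnt2b by -1.12 and the Dickkopf receptor Kremen1 by -0.29 in WT-Flx versus WT-Veh, each with adjusted p = 1. Lgr6 too was high in the bulb-rich HT-Veh replicate 4, at 387.1 against 97.45 to 110.9 in the other HT-Veh mice, and its difference without that mouse was -0.49. In the interaction Ror2 was at -0.94 and Kremen1 at 0.46, both with adjusted p = 0.998, and in Flx versus Veh Wnt2b was at -0.75 and Wnt5b at -0.33, both with adjusted p = 1.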

How the data were processed

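RNA of the medial prefrontal cortex of 16 mice, 1 sample each and 4 per group, was sequenced by the authors from stranded poly-A libraries as paired-end reads. The deposited signal is a normalized read count. Per the labels and the methods, the authors quantified transcripts with Salmon 1.1.0 on GRCm38 with GC bias correction, summed them to genes and divided them by DESeq2 1.30.1 normalization factors; the labels and the methods name different versions of R. Because at most 2.8% of low values in a sample were whole multiples of its smallest value (tolerance 0.01), reads could not be recovered, depth is unknown, and no counting interval is given. The number of mice limits the precision.

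All 16 columns were used, none left out. Differences were fitted with limma 3.58.1 (R 4.3.3; lmFit, then eBayes with a trend) on log2(value + 1) for genes that reached 10 in 4 or more samples of the fit, without covariates. P-values were two-sided and adjusted by Benjamini and Hochberg over all genes tested, threshold 0.05. On this scale the change of low genes is understated. P-values set each difference against the spread between mice within groups. They take the mice as independent, which could not be checked because littermates are unknown. The 4 pairwise fits used only the groups compared, and the interaction and the fits over both treatments or genotypes all 16 mice. These comparisons share mice and are not independent. The fit was tested on simulated data.

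Positions and exon lengths (the merged exons of each gene) came from GENCODE vM21, a GRCm38 annotation, and 18411 genes had a symbol. Members and lists were chosen with earlier results of these data known. Named in full were Ctnnb1, Axin2, Lef1 and, in each comparison, the 3 members with the smallest p, and outside the members the genes past the threshold or else the 2 with the smallest p. Other members were named by level, by place in the order or for their part in the length trend, after their values were seen. Alternatives were pseudocounts of 0.1 and 8, no filter, a mean of at least 100, upper-quartile scaling, all 4 groups in the fit, an olfactory bulb covariate and leaving out 5 bulb-rich libraries (marker mean over 2 log2 units above the lowest), both with all groups in the fit, a replicate block, and leaving out each mouse. Leaving out the 2 length-trend libraries was added after the data were seen.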

Additional observations from a re-analysis of the deposited data

Results flagged for a closer look

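Within the groups of 4, single mice lay far from the other 3 for 16 of the 43 genes. A mouse was singled out where its gap to the nearest of the others exceeded, as a share of the range of its group, the 95% critical value of Dixon's ratio. This held in 19 of 172 groups tested, where chance alone gives about 1 in 20, or 8.6, and mice share these departures across genes.

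WT-Veh replicate 1, which was rich in bulb markers and had the length trend, held 8 of the 19. Apc was at 9303 against 15491 to 16700 in the other WT-Veh mice. Gsk3b was at 4714 against 6371 to 6703, and Csnk1a1 at 6445 against 6906 to 6959. Fzd4 was at 323.9 against 553 to 582.1. In the other direction, Ctnnb1 was at 12435 against 8515 to 8785, and Wls at 1681 against 1228 to 1269. Wnt7a was at 485.3 against 240.5 to 256.9, and Tcf7 at 167.6 against 142.4 to 144.4.

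WT-Flx replicate 1, with the same length trend, held 4 of the 19. Apc was at 7587 against 14966 to 16869 in the other WT-Flx mice. Dvl3 was at 1757 against 2137 to 2217, and Pygo1 at 1044 against 1392 to 1433. Fzd9, one of the shortest of the 43 transcripts, was at 124.3 against 97.35 to 98.84.

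Bulb-rich libraries held further departures. In WT-Flx replicate 4, Wnt7a was at 436.8 against 252.2 to 269.5 and Tcf7l1 at 151.5 against 110.6 to 113.6. In HT-Veh replicate 4, Axin1 was at 699.2 against 590.2 to 595.1 and Dvl1 at 3131 against 2933 to 2952.

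The remaining 3 were in libraries without either feature. Dvl1 was at 3613 in HT-Flx replicate 3 against 3108 to 3166. Dvl2 was at 620.2 in HT-Veh replicate 3 against 717.5 to 727.8, and Wnt4 at 545.8 in HT-Veh replicate 2 against 649.2 to 669.9.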

How the results depend on the processing

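The count of Wnt pathway genes past the adjusted threshold was 0 in all 7 comparisons and in all 146 refits of them. The refits with a mean of at least 100 tested 39 or 40 of the 43, the others all 43. The replicate block left the count at 0 in every comparison and left Rspo1 outside the threshold in HT-Veh versus WT-Veh (-1.269, adjusted p = 0.391). Same-numbered mice correlated at -0.311 to 0.424 in the 4 pairwise comparisons, in none of which all 4 pairs passed 0.1. In each comparison 4 of 8 mice correlated best with their own number. These values do not settle whether the numbers mark a pairing, and the main fits did not use the numbers as one. The block moved the count at an unadjusted p under 0.05 in HT versus WT from 6 to 9 of the 43. The share of all genes went from 11.9% to 14.7%. Fzd3 (0.0284), Lrp6 (0.0456) and Lrp5 (0.0491) were added. In WT-Flx versus WT-Veh the block left 2 of the 43 and moved the count of all genes from 707 to 1237. Without the bulb-rich libraries WT-Flx kept 1 mouse, assumed to vary like the other groups. Rspo1 over both treatments passed with the bulb covariate (-1.128, adjusted p = 0.0423) and without WT-Flx replicate 4 (-1.074, adjusted p = 0.0109). Without the bulb-rich libraries the Rspo1 difference over both treatments was -1.306, larger in size than with all mice. Whether it passed is not given for this fit, because WT-Flx kept 1 mouse. Lgr5 in HT-Flx versus WT-Flx passed without WT-Flx replicate 3 (-2.945, adjusted p = 0.0357). That mouse was the only WT-Flx library not rich in bulb markers, so this fit sets bulb-rich WT-Flx mice against HT-Flx mice that are not.

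Some differences of Ctnnb1, Axin2 and Lef1, from -0.197 to 0.134 as given above, changed sign, and the cause was not tested. With the bulb covariate Ctnnb1 was at 0.049 in HT-Flx versus HT-Veh, 0.072 in HT-Flx versus WT-Flx, 0.001 in the interaction and 0.072 in HT versus WT. Without the bulb-rich libraries it was at 0.026, 0.037 and 0.089 in the same order without the interaction, Lef1 was at -0.095 in WT-Flx versus WT-Veh, and Axin2 was at -0.013 in HT versus WT. Without the length-trend libraries Ctnnb1 was at 0.02 in HT versus WT, and with upper-quartile scaling Axin2 was at -0.001 in Flx versus Veh. With each mouse left out, Ctnnb1 ranged from -0.021 to 0.161 in HT-Veh versus WT-Veh and from -0.064 to 0.026 in HT-Flx versus HT-Veh. Axin2 ranged from -0.076 to 0.034 in HT-Veh versus WT-Veh and from -0.043 to 0.043 in Flx versus Veh. Lef1 ranged from -0.005 to 0.094 in WT-Flx versus WT-Veh, from -0.289 to 0.014 in HT-Flx versus WT-Flx and from -0.028 to 0.135 in HT versus WT. With 4 mice per group, depth unknown and protein not analysed here, differences smaller than the intervals given could not be shown.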
